A study of Mus musculus with 31 samples.

Results

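The Hox genes of the mouse were examined in embryonic eyes at E13.5, a tissue in front of the body region where these genes are normally active. Members were all probes for transcripts, control spots left out, whose gene name was Hox followed by the cluster letter a, b, c or d and a number, a rule that itself reads no measured value. This gave 39 genes of 34832 gene names on the array, with 44 probes printed as 62 spots out of 55681 probes on 59305 spots. All but 1 of the 44 probes had an accession found in RefSeq, and the symbol was the same for those 43. Hoxa9, Hoxa13, Hoxb3 and Hoxd11 were among the genes with 2 probes, and Hoxa11 and Hoxb1 had 1 probe printed as 10 copies.

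Eyes without their pigmented epithelium, which had been dissected off, were compared on 1-colour Agilent arrays between 3 WT females, 3 WT males, 3 Ftx-/Y males and 11 Ftx-/- females. The Ftx-deficient mice were kept on a C57BL/6N background, the methods do not name that of the WT eyes separately, and all eyes used were normal in appearance. Ftx is a long noncoding RNA of the X-inactivation centre, and the targeted allele also removes the expression of microRNAs that lie in an intron of Ftx. The arrays used here were 2 for every Ftx-/- female eye, which were averaged, and 1 for every other eye, so that 31 arrays stood for 20 eyes. The methods state that samples were biologically independent, at least 3 for an experiment, but the labels tie no eye to an embryo, and p-values measure the spread between these eyes.

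As background, Hox genes encode homeodomain transcription factors that give cells of the hindbrain, trunk and limbs their position along the body axis. They lie in 4 clusters, and genes at one end of a cluster (low paralog numbers) act further forward than those at the other end. Outside their domains the clusters are held silent by Polycomb complexes: PRC2 methylates lysine 27 of histone H3 and PRC1 compacts the marked chromatin. Forebrain, retina and lens develop without Hox expression, and Polycomb targets are a usual place to look for derepression when silencing is disturbed.

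The sequences printed here are those of probes that carry conserved Hox sequence or were often above background, because what a probe can bind bears on how its signal is read. Among the 44 probes, 6 held codons of a conserved stretch of Hox proteins, which a script found by translation of the deposited 60-base probe and which are in capitals in the 5 printed (positions in mm9). For Hoxa6 the stretch is the hexapeptide that contacts the cofactor Pbx, and for the others it lies in the homeobox:
Hoxa6, chr6:52158194-52158253, minus strand: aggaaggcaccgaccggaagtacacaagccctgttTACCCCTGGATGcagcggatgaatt
Hoxa13, chr6:52208980-52209039, minus strand: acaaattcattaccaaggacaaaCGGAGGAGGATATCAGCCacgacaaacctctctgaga
Hoxc11, chr15:102787022-102787081, plus strand: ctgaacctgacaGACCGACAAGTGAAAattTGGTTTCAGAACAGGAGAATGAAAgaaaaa
Hoxc12, chr15:102768889-102768948, plus strand: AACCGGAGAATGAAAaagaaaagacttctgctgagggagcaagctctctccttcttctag
Hoxd10, chr2:74532280-74532339, plus strand: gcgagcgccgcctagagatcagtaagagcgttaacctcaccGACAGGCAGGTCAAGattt

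Of the remaining probes, the 4 most often above background are shown by their most purine-rich stretch of 30 bases, with purine runs of 6 bases or more in capitals and the position of the whole probe in mm9, and the less often detected second probe of Hoxa9 is set beside them. Whether these stretches lie in coding or untranslated sequence was not annotated in the tables used here:
Hoxa7, within chr6:52165626-52165685, minus strand: attgattttagttacaaaaatGGGGGGAAA
Hoxa9 (A_55_P1979768), within chr6:52174165-52174224, minus strand: AAAAAGAGAGcaagctAGAAAGAAAAAGAA
Hoxa9 (A_55_P2066103), within chr6:52175595-52175654, minus strand: ggttctcctccagttgatAGAGAAAAAcaa
Hoxa13 (A_51_P303316), within chr6:52208856-52208915, minus strand: AAAAGGtggagcAGAGGGcagcttGAAGAA
Hoxc10, within chr15:102801857-102801916, plus strand: GGAAAGAAAGGGGGAtaatcaaacAGAGAG

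The arrays as a whole differed in how many probes rose above background, between 47.0% and 69.8% of all probes, and this range bears on every Hox value below. The 4 slides did not hold the groups evenly: the first carried the 6 WT eyes with 1 Ftx-/Y eye (number 1), the second the other Ftx-/Y eyes with 3 Ftx-/- eyes, and the remaining slides Ftx-/- eyes only. WT and Ftx-/- female eyes never shared a slide. Within a slide the arrays lie in 2 rows, and all 3 WT females were in row 1, all 6 male eyes in row 2, and the Ftx-/- females in both (6 and 5 eyes), so that row and sex cannot be told apart in the WT. A probe for Ftx (named B230206F22Rik on the array) was well above background in 3 of 3 WT females, in 3 of 3 WT males, in 0 of 3 Ftx-/Y males and on 9 of 22 Ftx-/- arrays, with mean signals of 101.1, 106.1, 16.5 and 21.8. A second Ftx probe had the call in 2 of 3, 0 of 3 and 0 of 3 eyes and on 1 of 22 arrays, with means of 40.5, 18.9, 13.7 and 9.78, so that it did not separate the males. All 17 probes for 13 genes of the eye field and retina, such as Pax6, and all 17 probes for 13 lens genes were well above background on all 31 arrays, so the tissue matched its label.

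Hox transcripts were at or near background in all 4 groups. Well above background is the scanner software's call that a spot exceeds the local background by a set margin, and only 152 of 1364 Hox values (44 probes on 31 arrays) carried it, or 11.1%, against 55.2% of the values of all probes. Looser calls gave higher shares for both: 41.9% of Hox values and 76.5% of all values exceeded the 95th percentile of the negative controls, and 43.2% and 77.6% were positive and significant by the scanner's test. None of the 44 probes was well above background on all 31 arrays, whereas 42.1% of all probes were. Hox probes without the call on any array numbered 20 (45.5%, against 16.4% of all probes), and 17 of the 39 genes had no probe with it. Both numbers rest on this call, since 43 and 42 of the 44 probes passed the looser calls on at least 1 array, against 24 here. The 17 genes were Hoxa2, Hoxa3, Hoxa4, Hoxa5 and Hoxa11; Hoxb1, Hoxb2, Hoxb4, Hoxb6, Hoxb8 and Hoxb13; Hoxc6, Hoxc8, Hoxc9 and Hoxc11; and Hoxd3 and Hoxd9. In a whole eye, fewer expressing cells and less RNA per cell cannot be told apart.

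For 778 of the 1364 Hox values (57.0%, against 22.5% of all values) the scanner software had replaced a signal no higher than background by a small surrogate, so these values hold no measured level. Hoxb1, the marker of a single hindbrain segment, had a surrogate on all 31 arrays, and 0 of its 295 unflagged spots was well above background. Hoxa11, a limb and urogenital gene, had 2 of 295 such spots, and since a probe counted as well above background only where its spots mostly were, it carried the call on no array. The dimmest probe well above background had a normalized signal between 9.76 and 42.7 depending on the array. Some probes without the call read above that level, such as Hoxa6 at 22.0 in WT male eye 3, where the level was 16.25. An undetected Hox probe is therefore given, as a working limit, the higher of that level and its own signal.

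**Figure D1:**
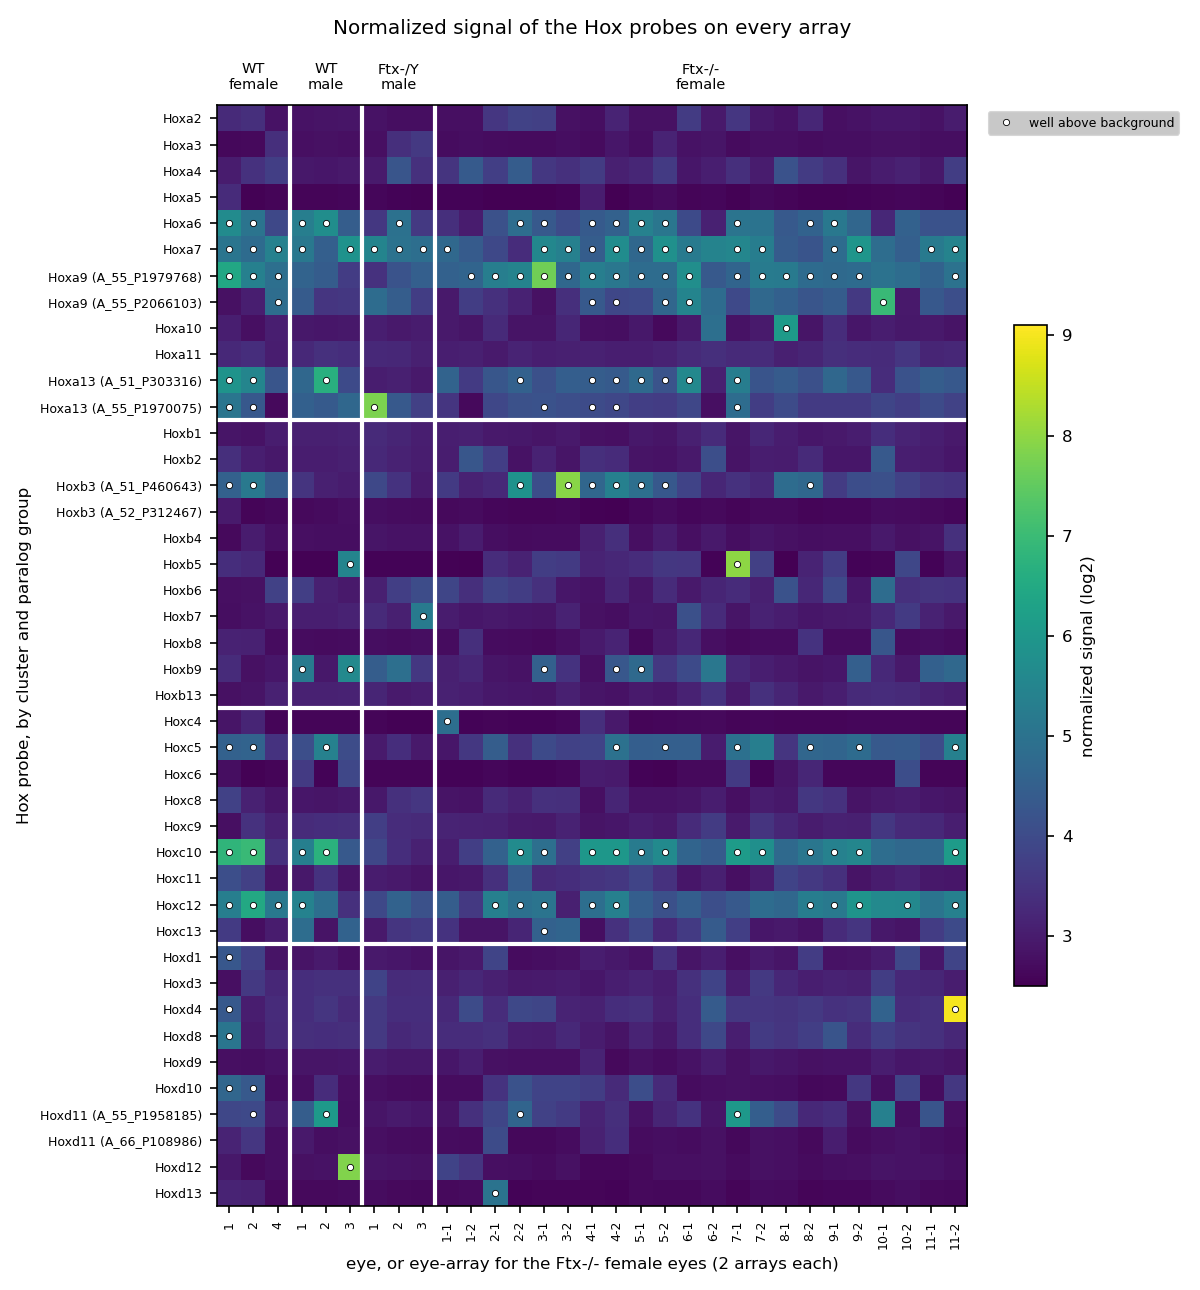
Normalized signal (colour, log2) of 42 Hox probes (rows, by cluster and paralog group) on the 31 arrays (columns, by group), with a white dot where the spot was well above background. The dots mark 151 of 1302 values, and most lie in a few rows of the Hoxa and Hoxc clusters.

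Detection was uneven between clusters. Of the Hoxa values 18.7% were well above background and of the Hoxc values 15.1%, against 4.99% for Hoxb and 3.87% for Hoxd. These shares pool 31 arrays, 22 of them of Ftx-/- females, and the order was not the same in each group: in WT females Hoxd had 20% and Hoxb 6.06%. Along the clusters, paralog groups 1 to 3, which act furthest forward, had 3.55% (11 of 310 values), groups 4 to 8 had 11.2% (52 of 465) and groups 9 to 13, which pattern the posterior trunk and limbs, had 15.1% (89 of 589). The anterior genes, whose domains lie closest to the eye, were the least often detected in the pooled arrays. In Ftx-/Y males groups 4 to 8 had 11.1% and groups 9 to 13 had 1.75%. Probes of different genes differ in sequence, so these shares describe probes and not the order of RNA levels.

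By group, 21.2% of Hox values were well above background in WT females, 10.6% in WT males, 4.55% in Ftx-/Y males and 10.7% in Ftx-/- females. Counted by array, 13, 11 and 4 of 44 probes carried the call in WT females, 5, 5 and 4 in WT males, and 2 each in the 3 Ftx-/Y males. The 22 Ftx-/- female arrays ranged from 0 to 11 with a median of 4.5. WT female eyes 1 and 2 stood above all male eyes, WT female eye 4 did not, and the Ftx-/- female arrays spanned nearly the whole range. The counts also followed the row of the slide. Among Ftx-/- females, with 2 arrays averaged, the 6 eyes in row 1 had 4 to 10 Hox probes above background with a mean of 6.25, and the 5 eyes in row 2 had 1 to 6.5 with a mean of 2.9. The WT females, all in row 1, had a mean of 9.33, and in row 2 the WT males had 4.67 and the Ftx-/Y males 2. Group and row thus moved together, and the part of the row in the shares by group was not tested.

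These counts moved with the share of all probes detected in the same eye. Across the 20 eyes Pearson's r reached 0.83, with a permutation p of 3e-05 that became 6e-05 after adjustment over the 2 relations computed, and Spearman's rho reached 0.72, with a permutation p of 0.00045 (9e-04 adjusted). The 11 Ftx-/- female eyes taken alone gave an r of 0.90 with a permutation p of 0.00019 (also 0.00019 adjusted) and a rho of 0.76 with a permutation p of 0.00866 (also 0.00866 adjusted), all tests being two-sided. Leaving out the 2 eyes farthest from the median share gave r values of 0.75 (permutation p = 0.00029) and 0.72 (permutation p = 0.0288). With slide means taken out, r came to 0.89 both times, and with row means taken out to 0.69 and 0.82. WT female eyes 1 and 2, with the most Hox probes, had 59.9% and 64.6% of all probes above background, against 53.6% in WT female eye 4 and 48.7% to 53.9% in the male eyes. The Hox probes are part of the total, but only 44 of 55681. The part of overall sensitivity in the differences between groups was not tested.

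**Figure D2:**
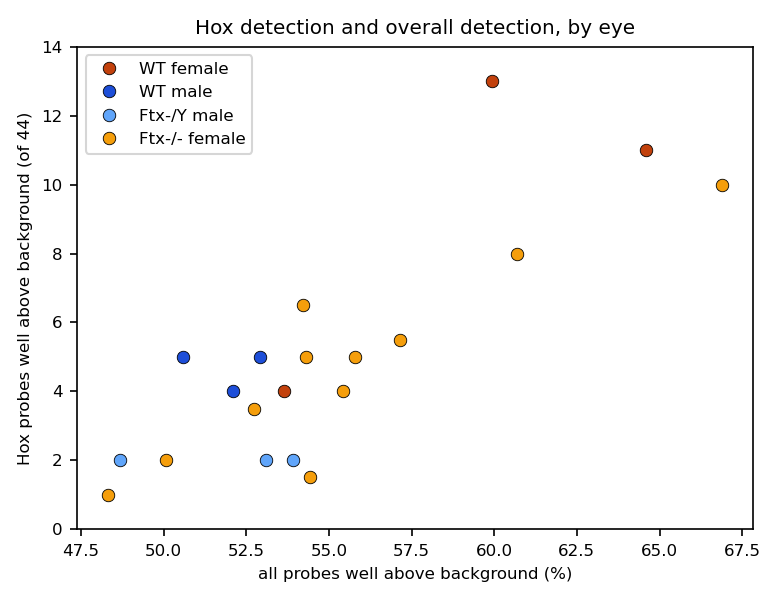
Hox probes well above background (y axis, of 44) against the share of all 55681 probes well above background (x axis, %), 1 point for each of 20 eyes, with the 2 arrays of a Ftx-/- female eye averaged. The points rise together, from 1 Hox probe at 48.3% to 13, 11 and 10 Hox probes at 59.9%, 64.6% and 66.9%.

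The 2 arrays of each Ftx-/- female eye gave a direct check of the calls, because both carried RNA of the same eye. Of 484 pairs of a Hox probe and an eye, 28 were well above background on both arrays, 48 on 1 array and 408 on neither. The call was therefore repeated in 36.8% of the pairs that had it at all, against 87.6% over all probes. Hox values of an eye differed between its arrays by a median of 0.18 on the log2 scale, against 0.08 for the 23427 probes detected on every array, and 2.48% of the Hox pairs differed by over 2 on the log2 scale, against 0.0978%. The Hox median includes surrogates, which hold no measured level. For the probes described by gene below, the medians ran from 0.19 (Hoxa9, A_55_P1979768) to 0.67 (Hoxc5).

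A few high Hox values stood alone. In 5 probes the highest array exceeded the next by 2 or more on the log2 scale, and 3 of these lay on an array whose twin could be read. Hoxd4, a hindbrain and neck gene, gave a normalized signal of 516.9 on array 2 of Ftx-/- eye 11 and 10.7 on array 1 of the same eye. Hoxb5 gave 254 on array 1 of Ftx-/- eye 7 and 13.5 on its twin, and Hoxb3 gave 242 on array 2 of Ftx-/- eye 3 and 16.7 on its twin. None of the 3 twins was well above background. The others had no twin: Hoxd12 reached 230 in WT male eye 3, where the next highest array had 14.2, and the homeobox probe of Hoxa13 reached 223 in Ftx-/Y eye 1, where the next had 33.2. The Hoxd4 value was also the only one of 1364 above 500, which the study's gene lists used as a minimum for the mean signal in WT females. No Hox probe reached that minimum.

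**Figure D3:**
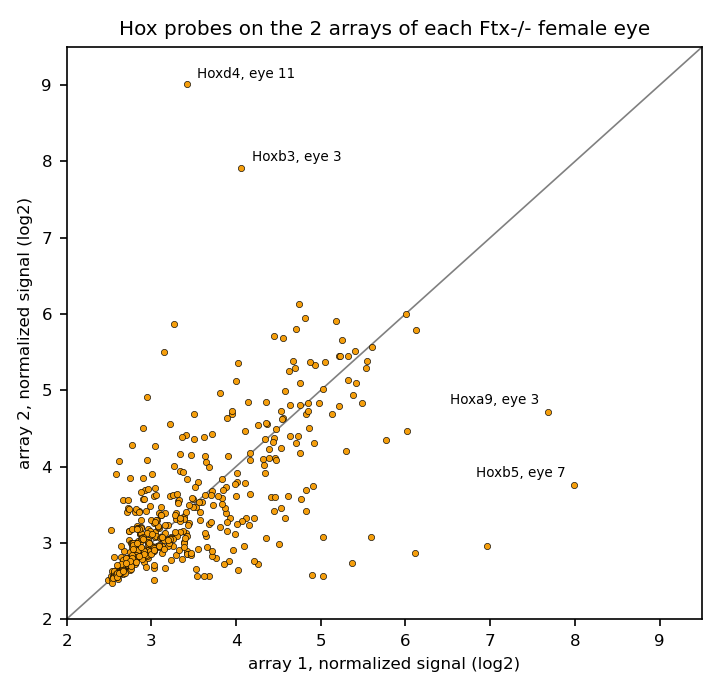
Normalized signal (log2) of the Hox probes on array 1 (x axis) and array 2 (y axis) of the 11 Ftx-/- female eyes, 1 point for each probe and eye, with the line of equality. Values above 7.5 lie far from the line, among them Hoxd4 in eye 11 with 516.9 against 10.7 on the linear scale.

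The 10 genes with a probe well above background on at least 50% of the arrays of 1 group are described by cluster, starting with Hoxa. Hoxa7, a thoracic patterning gene, had the most frequent call of all, on 22 of 31 arrays. Its signal was 33.5, 27.8 and 42.0 in WT female eyes, 35.2, 22.6 and 57.9 in WT male eyes and 44.4, 31.7 and 29.6 in Ftx-/Y eyes, and it ran from 12.4 through a median of 38.3 to 44.2 in the Ftx-/- female eyes. The 4 groups overlapped throughout. The log2 fold change of Ftx-/- over WT females was -0.14 (95% confidence interval -0.87 to 0.60).

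Hoxa9, a posterior trunk gene also active in blood progenitors, differed between its probes. The probe A_55_P1979768 was well above background in 3 of 3 WT females, 0 of 3 WT males, 0 of 3 Ftx-/Y males and on 17 of 22 Ftx-/- arrays. It read 88.1, 41.8 and 29.8 in WT females, 24.4, 21.3 and 12.8 in WT males, and 10.9, 18.2 and 22.7 in Ftx-/Y males, with 24.1, 30.7 and 73.2 as the lowest, median and highest Ftx-/- female eye. Eyes of the WT females all lay above those of the WT males. With each WT male eye set at the working limit described above, the fold was at least 2.07 on average. The difference did not pass adjustment (limma adjusted p = 0.195). The probe A_55_P2066103 did not repeat this order, being well above background on 1 of 3, 0 of 3, 0 of 3 and 5 of 22 arrays, with mean signals of 14.7, 14.8, 21.0 and 18.9.

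Hoxa6, another thoracic gene, was well above background on 14 arrays. Its signal was 51.5, 32.8 and 15.2 in WT females, 40.2, 53.0 and 22.0 in WT males, and 11.8, 31.1 and 12.02 in Ftx-/Y males, with a median of 22.0 and a range from 9.13 to 38.2 in Ftx-/- females. The groups overlapped.

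Hoxa13, which patterns the digits and the hindgut, was above background on 10 and 7 arrays with its 2 probes, and these disagreed in males. With A_51_P303316 the signal was 59.2, 45.2 and 19.01 in WT females, 26.3, 102 and 15.7 in WT males, and 8.09, 8.49 and 7.75 in Ftx-/Y males, with 13.5, 20.8 and 26.9 as the lowest, median and highest Ftx-/- female eye. The Ftx-/Y readings were the lowest, but 0 of 3 Ftx-/Y and 1 of 3 WT male arrays were well above background, and the dimmest probe with that call read 36.95 in Ftx-/Y eye 1, above WT male eyes 1 and 3. An order of the eyes is thus not shown, and the difference did not pass adjustment (limma adjusted p = 0.0985). With the homeobox probe the same comparison gave 23.0, 20.7 and 26.0 in WT males against 223, 20.2 and 13.5 in Ftx-/Y males, where only the value of 223 was well above background.

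In the Hoxc cluster, Hoxc10, a lumbar and hindlimb gene, was well above background on 16 arrays and spread widely within the WT groups. It read 112, 126 and 10.7 in WT females, 40.4, 106 and 20.2 in WT males, and 14.9, 10.3 and 8.62 in Ftx-/Y males, with 10.4, 34.8 and 64.0 as the lowest, median and highest Ftx-/- female eye. It was well above background in 2 of 3 WT males and 0 of 3 Ftx-/Y males, and the difference did not pass adjustment (limma adjusted p = 0.301). Since Ftx-/Y eye 1 is bounded only by 36.95, an absence of overlap between the eyes is not shown.

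Hoxc12, a gene of the tail region, was well above background on 15 arrays. Its signal was 40.4, 89.6 and 35.1 in WT females, 43.1, 29.3 and 10.7 in WT males, and 15.2, 23.8 and 17.5 in Ftx-/Y males, with a median of 31.9 in Ftx-/- females. Hoxc5, which acts at the neck and upper thorax, was well above background on 9 arrays, with mean signals of 19.5 ± 7.37 (SD, n = 3) in WT females, 25.1 ± 14.7 (n = 3) in WT males, 8.63 ± 1.51 (n = 3) in Ftx-/Y males and 20.1 ± 7.23 (n = 11) in Ftx-/- females. Of the 11 Ftx-/- eyes, 0 had the Hoxc5 call on both arrays and 6 on 1.

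Of the Hoxb and Hoxd clusters, 3 genes met the same rule. The homeobox probe of Hoxb3, a hindbrain and pharyngeal arch gene, read 23.6, 36.2 and 21.4 in WT females and 11.3, 8.51 and 8.01 in WT males, with the call in 2 of 3 and 0 of 3 eyes, and the difference did not pass adjustment (limma adjusted p = 0.259). Its other probe, A_52_P312467, had a surrogate on all 31 arrays, so the 2 probes for Hoxb3 disagreed. Hoxb9, a thoracic gene, read 9.86, 6.92 and 7.49 in WT females and 36.5, 7.57 and 48.4 in WT males, with the call in 0 of 3 and 2 of 3 eyes. The male eye at 7.57 lay within the female range, and the difference did not pass adjustment (limma adjusted p = 0.274). Hoxd10, a hindlimb gene, was well above background in WT female eyes 1 and 2 only (25.6 and 20.4, against 6.60 in eye 4) and on 0 of 22 Ftx-/- arrays.

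**Figure D4:**
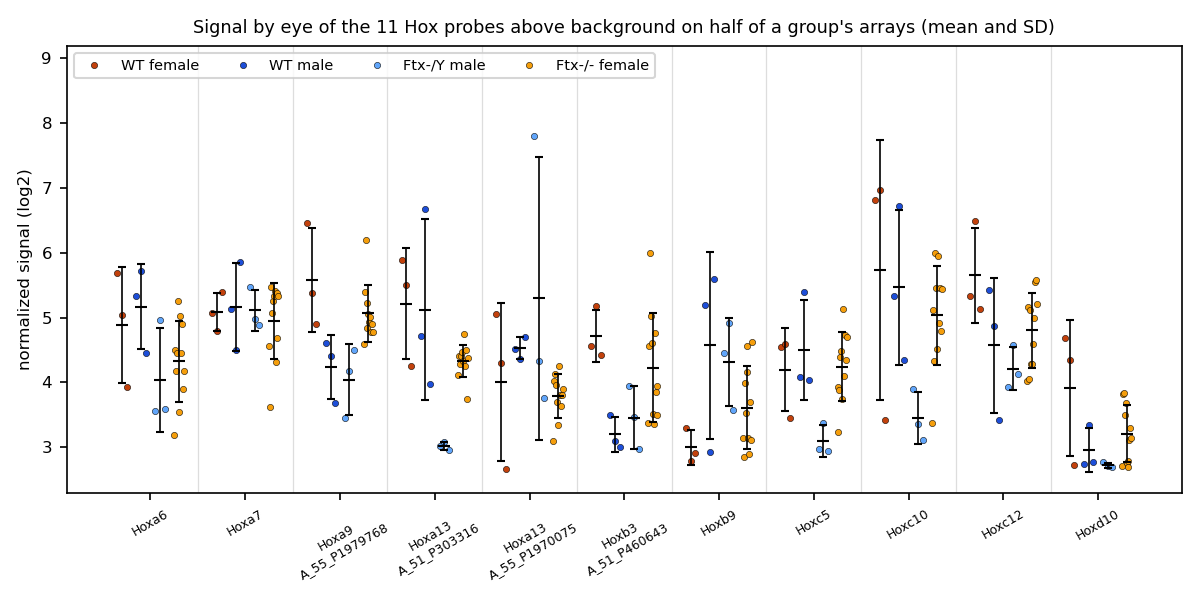
Normalized signal (y axis, log2) in each of 20 eyes for the 11 probes of 10 Hox genes that were well above background on at least 50% of the arrays of 1 group, with the mean and SD of each group in black. Groups overlap for most probes, and single eyes set the longest error bars.

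The loss of Ftx was followed by no called change of a Hox gene in females. The comparison used limma over all probes, with Benjamini-Hochberg adjustment and a threshold of 0.05, and called 8809 of 55681 probes (15.8%) between Ftx-/- and WT females but 0 of 44 Hox probes. The number over all probes depended on the slides and eyes: it was 367 with slide as a fixed block, 3305 without WT female eye 1 and 3555 on values not scaled between arrays, and the Hox count was 0 each time. Among the 28427 probes that, like every Hox probe, were well above background on at most 22 arrays, 6.44% were called. At an unadjusted p under 0.05, 3 Hox probes passed (29.7% of all probes did), all lower in Ftx-/- females. They were Hoxd1 (adjusted p = 0.0684), Hoxa13 with A_51_P303316 (adjusted p = 0.131) and Hoxd10 (adjusted p = 0.145). Hoxd1 and Hoxd10 were well above background on 0 of 22 Ftx-/- arrays, so no fold is given for them. Hoxd1 rested on a single WT female eye well above background, at 19.5, against 13.8 and 7.19 in the others.

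Fitted Hox log2 fold changes in females, most of them between values at background, ran from -0.88 to 0.61, 21 above and 23 below 0, with a median of -0.02 against 0.02 over all probes, and standard errors had a median of 0.25. Scaling to the 75th percentile moved the median of all probes to -0.29 and that of the Hox probes to -0.65, and 5 of 44 Hox probes (Hoxc8, Hoxc9, Hoxd1, Hoxd11 and Hoxd13) were then called lower, when 12449 of all probes (22.4%) were called in either direction. Without WT female eye 4, the one with few Hox probes above background, 5 were also called lower (Hoxa13, Hoxc10, Hoxd1, Hoxd10 and Hoxd11), and 10879 of all probes (19.5%) were called. With the slide row as a fixed block, an alternative chosen after seeing the data, 0 Hox probes and 6204 of all probes (11.1%) were called, and within row 1 alone, 6 Ftx-/- against 3 WT eyes, 0 and 2549. No Hox probe was called higher in Ftx-/- females under any alternative tested with adjustment, among them slide as a fixed block, which gave 0 calls but links WT and mutant eyes only through Ftx-/Y eye 1, the single mutant eye on the first slide.

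In males, 0 of 44 were called between Ftx-/Y and WT eyes, and only 0.0988% of all probes were. At an unadjusted p under 0.05 there were 9, 7 lower and 2 higher, against 12.9% of all probes. Fitted fold changes ran from -2.10 to 0.77 on the log2 scale with a median of -0.01, again mostly between values at background, and standard errors had a median of 0.32. Leaving out WT male eye 3 gave 2 called Hox probes (Hoxa13 and Hoxd11, both lower in Ftx-/Y) among 1017 of all probes, where the 3 eyes gave 55. Leaving out WT male eye 2 gave 1 (Hoxc6, lower) among 36, and slide as a fixed block gave 1 (the homeobox probe of Hoxa13, higher) among 457. That block sets Ftx-/Y eye 1 alone against the WT males, and the call rests on the lone value of 223 in that eye.

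**Figure D5:**
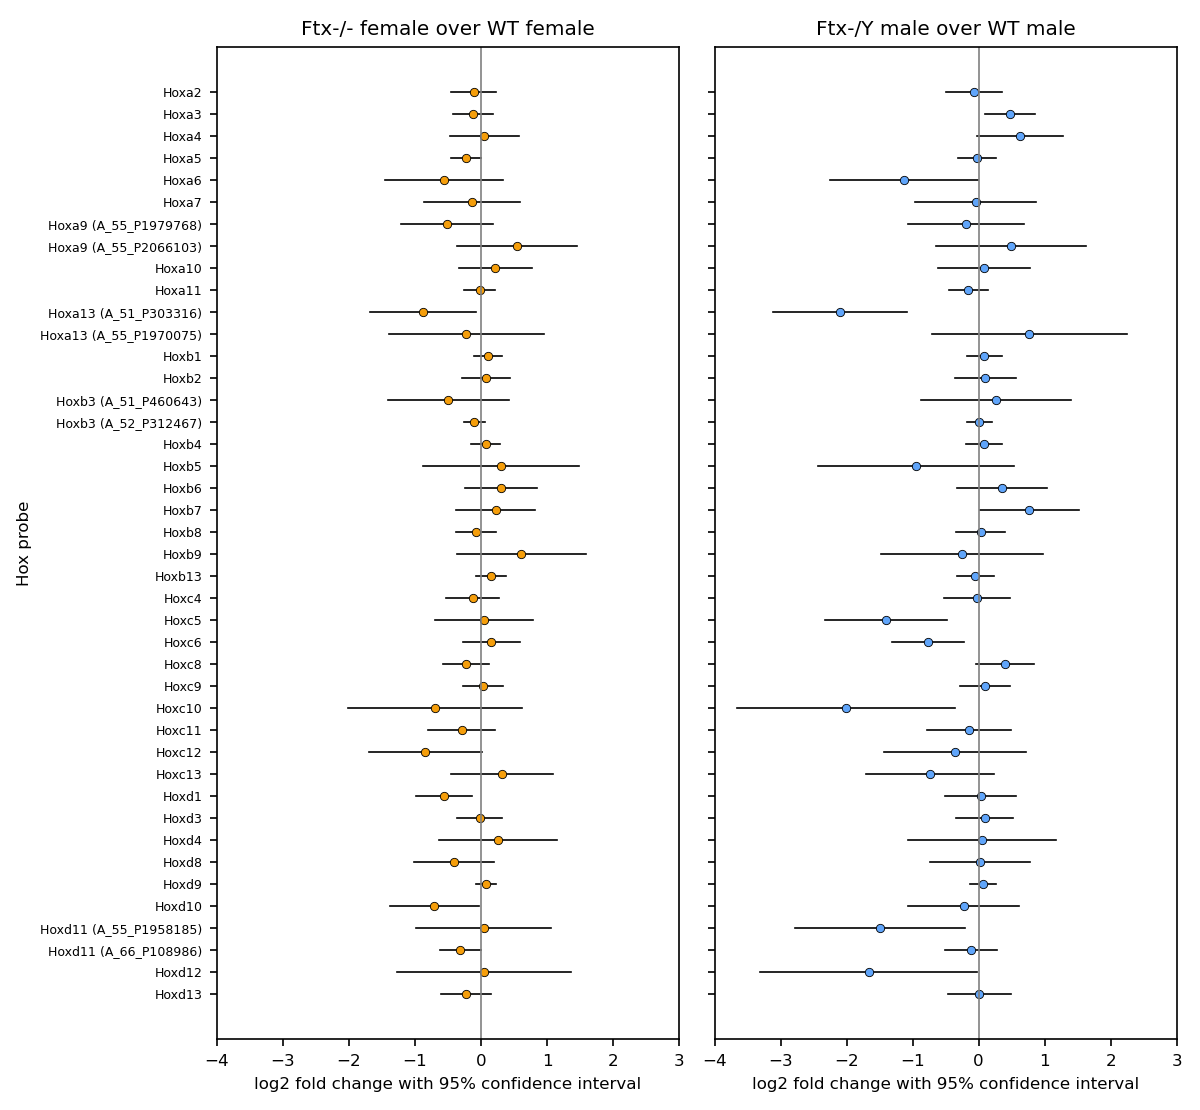
Log2 fold change (x axis) with its 95% confidence interval from limma for 42 Hox probes (rows), Ftx-/- over WT females (left) and Ftx-/Y over WT males (right). Points lie on both sides of 0 in each panel, and the intervals are not adjusted for the number of probes; fitted values are drawn also where a probe was not above background.

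Between the sexes, 0 of 44 Hox probes were called in WT eyes (0.424% of all probes) and 0 of 44 between Ftx-/- females and Ftx-/Y males (0.875%). Without adjustment, 9 passed in WT eyes (13.3% of all probes) and 8 in the mutants (14%). Of the 9, 5 had a higher signal in females, and of the 8, 4 did. For the female minus male difference of the Ftx change, 0 of 44 were called (0.00898% of all probes) and 4 passed without adjustment (10% of all probes). Without WT female eye 4, 3 Hox probes (Hoxa9, Hoxd1 and Hoxd10) were called higher in WT females than in WT males, among 2211 of all probes instead of 236, and without WT male eye 2, 2 (Hoxb9 and Hoxc6) were called lower, among 325. Within row 2 alone, 5 Ftx-/- female and 3 Ftx-/Y eyes gave 0 called Hox probes among 564.

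The study listed genes by a looser rule, a fold over 1.2 or under 0.8 with an unadjusted p under 0.05. With the methods' t-test this took 1 of 44 Hox probes in the female comparison (17.2% of all probes), 0 of 44 in males (4.66%), 0 of 44 between WT females and males (3.1%) and 9 of 44 between the mutants (12.7%). With limma's p in its place it took 3 of 44 in females (6.82%, against 24.3% of all probes), 9 of 44 in males (20.5%, against 11.3%), 9 of 44 between WT females and males (20.5%, against 11.7%), 7 of 44 between the mutants (15.9%, against 10.9%) and 4 of 44 for the difference of the changes (9.09%, against 9.04%). Hox shares in the male and WT comparisons thus lay below the background with one test and above it with the other. These probes were all dim, and a minimum mean signal of 500 in WT females would have removed them.

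Transcripts of cofactors of the Hox proteins were well above background where most Hox transcripts were not. For this and the lists that follow, 7.77% of all probes were called higher and 8.05% lower in Ftx-/- females, and 14.1% and 12.4% of the 23427 probes well above background on every array. WT and Ftx-/- female eyes shared no slide, and with slide as a fixed block 367 of all probes were called instead of 8809. The lists were counted without that block, so the part of the slides in their calls was not tested. All 9 TALE homeobox cofactors (the Meis, Pbx and Pknox families, which bind DNA together with Hox proteins) were on the array, and 16 of their 17 probes were well above background on every array. In Ftx-/- females 2 of these probes rose and 3 fell. Pknox1 rose by 0.79 on the log2 scale with 1 probe (adjusted p = 0.00139) and not with its other (0.19, adjusted p = 0.296). Meis3 fell by 0.41 with 1 of its 3 probes (adjusted p = 0.000866), and the others were at -0.28 (adjusted p = 0.0844) and -0.45 (adjusted p = 0.0597). The list median was -0.07, against 0.02 over all probes, and 0.15 on values not scaled between arrays, where 2 probes rose and 0 fell.

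Polycomb genes were also well expressed. For PRC2, 16 of 20 probes for 12 genes were on all 31 arrays, Ezh2, Eed and Suz12 among them, with 6 probes higher and 1 lower in Ftx-/- females and a list median of 0.05. The histone-binding subunits Rbbp4 and Rbbp7 rose by 0.41 (adjusted p = 0.00365) and 0.32 (adjusted p = 0.00234) with 1 probe each and had -0.18 (adjusted p = 0.0703) and -0.05 (adjusted p = 0.629) with the other. The accessory genes Aebp2 and Mtf2 rose by 0.32 (adjusted p = 0.00566) and 0.31 (adjusted p = 0.00148), each with 1 of 2 probes. Of the core subunits, looked up for their role, Suz12 rose by 0.29 (adjusted p = 0.0128), while Ezh2, the methyltransferase, was at -0.06 (adjusted p = 0.573) and Eed at 0.07 (adjusted p = 0.389). For PRC1, 29 of 39 probes for 21 genes were on all arrays, with 11 higher and 3 lower and a median of 0.13. Among them Cbx8, which binds the methylated histone, rose by 1.52 (adjusted p = 0.00201), Pcgf5 by 0.78 (adjusted p = 0.00263), and Bmi1, a partner of the ubiquitin ligase, by 0.51 (adjusted p = 0.00239). For the opposing trithorax proteins and H3K27 demethylases, 16 of 18 probes for 12 genes were on all arrays, with 2 higher and 2 lower and a median of 0.01. Rbbp5 rose by 0.65 (adjusted p = 0.00489) and Men1 fell by 0.61 (adjusted p = 0.00208). Under 4 other scalings PRC2 had 3 to 6 probes higher and 0 to 1 lower and PRC1 8 to 11 higher and 0 to 5 lower.

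Genes that lie beside the Hox clusters, or that resemble them, were mostly as dim as the Hox genes. Of 11 probes for 9 ParaHox and neighbouring genes, 1 was on all 31 arrays and 4 on none. That probe was for Evx2, the homeobox gene next to Hoxd13. Its signal was 359 ± 1.30 (SD, n = 3) in WT females, 286 ± 80.2 (n = 3) in WT males, 207 ± 52.0 (n = 3) in Ftx-/Y males and 207 ± 42.6 (n = 11) in Ftx-/- females, and it fell by 0.82 on the log2 scale in females (adjusted p = 0.00791). The other Evx2 probe was well above background on 1 of 31 arrays, so the 2 disagreed, and on values not scaled between arrays 0 of these 11 probes were called. The only probe called higher, found after its values were seen, was for Gsx2. It was well above background in 0 of 3 WT females, 0 of 3 WT males and 1 of 3 Ftx-/Y males and on 12 of 22 Ftx-/- arrays (adjusted p = 0.0344 against WT females), so no fold is given, and it was not called under 3 other scalings. The other Gsx2 probe had the call on 7 of 22 Ftx-/- arrays and on none of the others (adjusted p = 0.187).

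Of 17 noncoding transcripts listed for the Hox clusters, 3 were on the array and matched by name or accession. Hoxa11as, the antisense partner of Hoxa11, was well above background in 3 of 3 WT females, 2 of 3 WT males, 0 of 3 Ftx-/Y males and on 8 of 22 Ftx-/- arrays. Its mean signal was 47.0 ± 8.09 (SD, n = 3), 35.8 ± 9.03 (n = 3), 24.9 ± 9.06 (n = 3) and 27.02 ± 4.94 (n = 11), and it was called lower in Ftx-/- females (adjusted p = 0.0293), where most arrays bound it only from above. It was not called on values left unscaled between arrays. Hoxaas3 was on 0 arrays and Hoxd3os1 on 1.

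Other genes of the trunk, limbs and viscera behaved like the Hox genes in part. Of 17 probes for 15 such genes, 2 were on all 31 arrays (Tbx5, which is also expressed in the dorsal retina, and Uncx) and 6 on none, with no probe called, and 1 called lower with 75th percentile scaling and 1 higher with quantile normalization. Of 12 probes for 10 genes of hindbrain, spinal cord and neural crest, 4 were on all arrays and 2 on none, and 0 were called in any comparison, although 75th percentile scaling called 2 lower in Ftx-/- females. Their summed signal was 1481 to 1818 in WT females, 1688 to 2304 in WT males, 2117 to 2212 in Ftx-/Y males and 1516 to 3893 in Ftx-/- females.

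Of the tissues around the eye, the periocular mesenchyme had markers that were called in the comparison of Ftx-/- with WT females and in none of the other 4 comparisons. Of its 13 probes 9 rose in Ftx-/- females and 0 fell, with a summed signal of 3753 to 5474 in WT females, 5403 to 14260 in WT males, 4917 to 10370 in Ftx-/Y males and 6041 to 53680 in Ftx-/- females. Lum, a matrix proteoglycan, rose by 3.24 on the log2 scale (adjusted p = 0.0151) and Foxc1, a transcription factor of this mesenchyme, by 2.23 (adjusted p = 0.0106). Under 4 other scalings 4 to 8 of these probes rose and 0 fell. Of 17 lens probes 13 fell and 0 rose in Ftx-/- females, and their sum was 1689000 to 1818000, 1647000 to 1727000, 1588000 to 1740000 and 1259000 to 1642000 in the same order. Bfsp1, a lens filament protein, fell by 1.11 (adjusted p = 0.000591). Under 4 other scalings 6 to 13 of these probes fell and 0 rose. Higher and lower calls in Ftx-/- females numbered 1 and 4 of 17 retina probes, 1 and 0 of 12 pigment epithelium probes, 1 and 0 of 12 muscle probes, 4 and 0 of 12 erythroid probes, 2 and 0 of 15 macrophage probes, 0 and 1 of 9 endothelial probes and 0 and 0 of 12 surface ectoderm probes. The muscle regulators Myf5 and Myod1 and the pigment epithelium gene Rpe65 were on 0 arrays. The part of these tissues in the Hox values was not tested.

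Detection can be set beside the sequences printed above. The 6 with conserved codons were well above background in 25.3% of their values, against 8.91% for the other 38, and 5 of the 6 had the call on at least 1 array, Hoxc11 being the exception. Such codons were found in 17 of all 55681 probes, and these 17 had the call in 43.8% of their values, below the 55.2% of all probes. Hox probes with over 60% purines (5 probes) had 36.8% of their values well above background, those with 45% or less (11 probes) 4.11%, and those between (28 probes) 9.33%. Over all probes these shares were 57.0%, 56.1% and 54.2%, but the share never above background was 4.59%, 19.8% and 17.1%. Across the 44 probes the number of arrays had a Spearman correlation of 0.35 with purine content and of 0.30 with GC content, a description over probes that share the same arrays. Whether these probes also bound other RNA was not tested.

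As background, stretches of unmethylated CpG steps recruit Polycomb complexes to DNA. RefSeq promoters (GRCm38.p6, 300 bases around the start) were given for 22 of the 39 genes, and their 24 windows held a median of 14.5 CG steps, from 4 to 45, against 7 over 32851 promoters, of which 34.6% reached the Hox median. Hoxa13 had 45 and Hoxd13 37, while Hoxa9 and Hoxd4, with 4, lay below the median of all promoters. Hoxa9 and Hoxa7 (9), which had the most frequent calls, lay in the lower part of this range, while Hoxa6 (26) and Hoxa13 were also among the detected genes. The CG step reads the same on both strands, and 94.6% of all windows held at least 1.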

How the data were processed

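RNA of single E13.5 eyes was labelled with Cy3 and hybridised to Agilent mouse arrays. The deposited files hold the intensity of each spot as read by Agilent Feature Extraction 11.0.1.1 (mm9 annotation), background-subtracted and not normalized between arrays, with surrogates for spots no brighter than background; the deposited series table holds the same intensity values, rounded. The arrays of 1 more WT female, and second arrays of other eyes that the methods describe, were not analysed here. Spots were scaled by quantile splines as in the study's methods, outlier spots were left out, log2 values of a probe's spots and of an eye's 2 arrays were averaged, and 4 groups were fitted over all 55681 probes with limma 3.58.1 in R 4.3.3 (trended prior, Benjamini-Hochberg adjustment, threshold 0.05). Folds given as at least a value set the brighter group's mean against, for each dim array, the higher of the probe's own signal and the lowest signal well above background. The fit was also run on simulated data with changes planted in bright probes, which checks the calculation and not the Hox results. Correlations used 100000 permutations. Hox genes were described with values if a probe was well above background on at least 50% of the arrays of a group or was called, and up to 4 called genes of other lists were named by size of change, beside a few said to be chosen otherwise. Names on 2 arrays differed for 59 spots, none a Hox gene, and were taken from the first array. The members and lists were chosen with earlier results of these data known. Some genes and 1 probe sequence are not reported here, although all 44 Hox probes entered the counts and tests.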

Additional observations from a re-analysis of the deposited data

How the results depend on the processing

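Counts of called Hox probes were 0 in the fit as reported, and most alternatives left them there. For Ftx-/- against WT females the count became 5 with 75th percentile scaling, 1 with the 2 groups alone (Hoxa13), 1 with array 2 only of each eye (Hoxd13), and 3 and 1 under the study's unadjusted criteria with limma and with the methods' t-test. Of all probes, 13.9% were called with the 2 groups alone and 12.8% with array 2 only. An alternative chosen after seeing the data, the lower of an eye's 2 arrays, gave 8, all lower in Ftx-/- females, among 11835 of all probes (21.3%); it lowers only the eyes with 2 arrays by construction. For Ftx-/Y against WT males the Hox count became 1 with slide as a fixed block and 9 under the criteria with limma (0 with the t-test). For WT females against WT males it became 1 (Hoxd3) with normexp background and 9 under the criteria with limma (0 with the t-test). With normexp background 960 of all probes (1.72%) were called in the latter comparison. For Ftx-/- females against Ftx-/Y males the Hox count became 1 with quantile normalization and 1 with the 2 groups alone (Hoxa13 both times), 3 with the methods' t-test after adjustment (Hoxa13, Hoxc10 and Hoxc5), and 7 and 9 under the criteria with limma and the t-test. Of all probes, 0.988% were called with quantile normalization, 0.704% with the 2 groups alone and 3.88% with the adjusted t-test. For the difference of the changes the Hox count was 4 under the criteria. The cause was not tested. Leaving out single eyes of the groups of 3 (the 11 Ftx-/- eyes were not left out) gave 0 to 5, 0 to 2, 0 to 3, 0 to 1 and 0 to 0 called Hox probes for these 5 comparisons in the order of the text. The mutants' 1 was Hoxa3, lower in females, without Ftx-/Y eye 1, where 458 of all probes (0.823%) were called. With a replicate block for the shared sample numbers, 0 Hox probes were called in each of the 4 pairwise comparisons. Few of all probes were called there either, 20, 0, 13 and 9 in the order of the text. Same-numbered eyes did not deviate together (correlations from -0.48 to 0.33), so the numbers do not pair the eyes. The filter on a signal above 500 left 0 Hox probes to test. With slide row as a fixed block, also chosen later, 0 Hox probes were called in each of the 5 comparisons. Within slides, Ftx-/- eyes 1 to 3 against Ftx-/Y eyes 2 and 3 gave 0 called Hox probes; so did Ftx-/Y eye 1 against the WT males, an arm of 1 eye assumed to vary like the others, for which the fixed block gave the 1 call above. The share of Hox values above background was 41.9% against the 95th percentile of negative controls, 43.2% with the scanner's looser call of positive and significant signal (76.5% and 77.6% of all probes), 18.5% against the 99th percentile (57.8% of all probes), and 0.0733% with a signal above 500 (25.2%); the Hox probes with at least 1 such value, 24 of 44 in the report, were then 43, 42, 41 and 1, so the number never detected rests on the rule. Signal near background limits all Hox values: of 967 recomputed fold changes of named probes, 75 changed sign and 17 passed adjustment.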
